A study of Canis lupus familiaris with 10 samples.

Results

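The metallothionein genes MT2A and MT3 and the glutathione peroxidase gene GPX3 were followed in the visceral adipose tissue (VAT) of adult Beagle dogs. These 3 genes were picked from the 19856 genes in the count tables because they were higher after treatment in these same libraries, so their change between the groups is given as a description, with no p-value, and supports nothing further. RNA-seq libraries came from 5 dogs, 3 males (dogs 1, 4 and 5) and 2 females (dogs 2 and 3), each with a Pre-ACTH sample taken by laparotomy and a Post-ACTH sample taken at a later laparotomy, after 25 weeks of tetracosactide, a synthetic ACTH analog that makes the adrenal glands release cortisol. Tetracosactide was given by subcutaneous osmotic pumps, renewed every 4 weeks, at daily doses that began between 1.3 and 1.95 μg/kg and ended between 6 and 10 μg/kg. Each dog served as its own control, and no genetic alteration is described. No dogs left untreated over the same weeks were analysed here, so treatment, passing time and the earlier surgery cannot be told apart.

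Metallothioneins are small proteins rich in cysteine that bind zinc and copper and buffer the free metal in the cell. The gene MT2A is known to be switched on by zinc, through the factor MTF1, and by glucocorticoids. MT2A is made in most tissues, whereas MT3 is best known from the brain. GPX3 encodes a secreted selenoprotein that reduces peroxides with glutathione as electron donor and circulates in plasma, and it is also made by adipocytes. In the RefSeq annotation of the dog assembly UU_Cfam_GSD_1.0, MT1E (which lists MT1 among its synonyms), MT2A, MT-III and MT4 are neighbours on a single chromosome, with a long non-coding RNA gene between MT2A and MT-III. The counts were made on another build, CanFam3.1, so no positions are given.

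Libraries held 8728330 to 14867529 counted reads in Pre-ACTH and 12314258 to 14589329 in Post-ACTH, and the smallest was the Pre-ACTH library of dog 3. Levels are given as CPM, the counts a gene would have in a library of 1000000 reads, after scaling with edgeR's TMM factors. Gene lengths were not used, so levels are compared between samples and not between genes. In bulk tissue, a change in the number of cells that make a transcript and a change in the RNA per cell cannot be told apart. Of the 12 listed adipocyte markers, 1 had a name here, as only genes the study called changed in these libraries had names. That gene, LIPE, which encodes hormone-sensitive lipase, stood at 1513 to 1935 CPM in Pre-ACTH and 2138 to 2592 in Post-ACTH.

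All 3 genes were higher in Post-ACTH than in Pre-ACTH in 5 of 5 dogs, a pattern that 13.4% of the 13577 tested genes showed. MT2A had the smallest difference on the log2 scale. MT3 was near the limit of detection before treatment and GPX3 was low, and both were many times higher afterwards. In the paired fit of all genes with edgeR, 2 of the 3, MT3 and GPX3, passed the threshold of a false discovery rate (FDR) under 0.01. Over all tested genes, 0.751% passed in this direction and 1.97% in either. As the same contrast chose the genes, nothing is read from this count. It was 2 without dog 1 and 0 when dog 2, 3, 4 or 5 was left out. Calls fell in the whole fit too. Over all tested genes and both directions, 268 passed with all dogs and 318 without dog 1. Without dogs 2, 3, 4 and 5 in turn, 1, 12, 117 and 23 passed. With DESeq2 all 3 of the genes passed, MT2A included, and DESeq2 called 3.68% of all tested genes higher.

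MT2A (ENSCAFG00000023759) was measured in Pre-ACTH at 6.01, 10.5, 6.74, 3.40 and 4.82 CPM in dogs 1 to 5. In Post-ACTH the levels were 7.64, 19.1, 14.1, 28.9 and 16.6. Dog 4 was the lowest of the dogs before treatment and the highest after it. The mean level was 6.30 ± 2.69 in Pre-ACTH and 17.3 ± 7.78 in Post-ACTH (SD, n = 5 dogs), and the groups overlapped because the Post-ACTH level of dog 1 lay below the Pre-ACTH level of dog 2. Without dog 1, or without dog 2, they did not overlap. Groups were then separate, higher in Post-ACTH, in 1080 and 787 of the 13577 tested genes, against 584 with all dogs. The fitted log2 fold change was 1.40 (SE 0.35).

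The precision of each dog's fold depends on its reads. For MT2A, 38 to 141 reads were counted per Pre-ACTH library and 92 to 402 per Post-ACTH library. The fold of dog 4 was 8.51 (95% counting interval 6.09 to 12.2), and that of dog 5 was 3.43 (2.62 to 4.54). Dogs 2 and 3 had folds of 1.81 (1.47 to 2.23) and 2.10 (1.57 to 2.83). In dog 1 the fold was 1.27 and its interval, 0.931 to 1.74, included equality. Such intervals are exact conditional binomial intervals and cover counting error only.

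**Figure D1:**
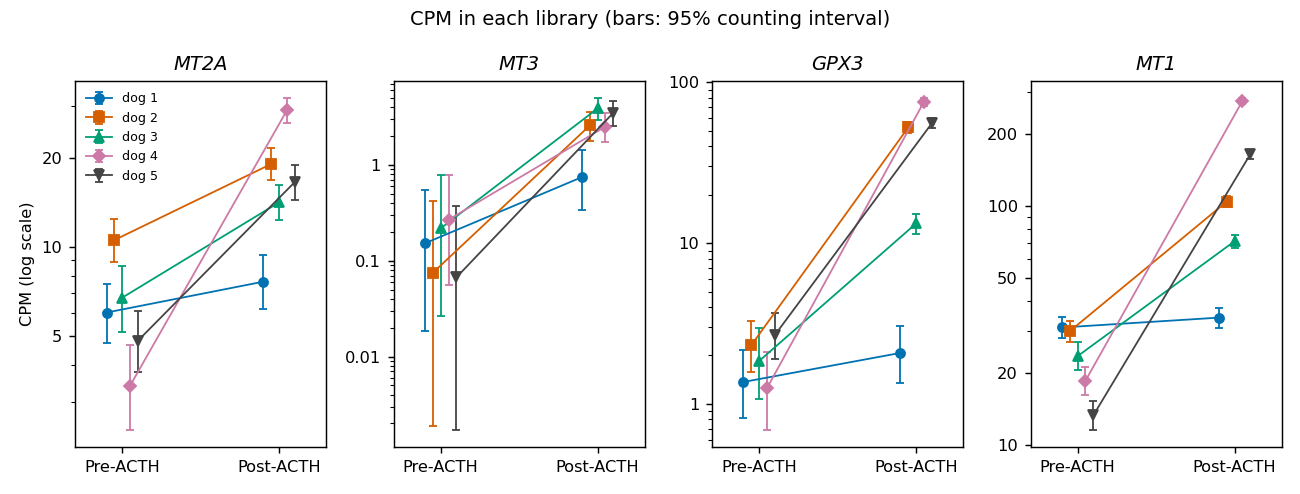
CPM (log scale) of MT2A, MT3, GPX3 and MT1 in the Pre-ACTH and Post-ACTH library of each of the 5 dogs, joined by a line per dog, with bars for the exact 95% Poisson counting interval. Every line goes up, and in each gene the Post-ACTH point of dog 1 is the lowest of its group, at 7.64 for MT2A, 0.747 for MT3, 2.07 for GPX3 and 34.2 for MT1.

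MT3 (ENSCAFG00000028459) was close to absent before treatment. Its reads in Pre-ACTH numbered 2, 1, 2, 3 and 1 in dogs 1 to 5, and in Post-ACTH 9, 35, 57, 35 and 47. These correspond to 0.152, 0.0748, 0.217, 0.268 and 0.0670 CPM before treatment and to 0.747, 2.59, 3.89, 2.52 and 3.51 after it. The groups did not overlap, which held for 4.30% of all tested genes in this direction. No Pre-ACTH library and 4 Post-ACTH libraries reached the minimum of 10 reads, so MT3 entered the tested genes only through the group in which it was high.

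Because the Pre-ACTH libraries held 9 MT3 reads in all, against 183 in Post-ACTH, the size of its difference is poorly fixed. The fold of the summed reads was 18.6, with a counting interval from 9.59 to 41.4. In single dogs the fold was 4.91 (1.02 to 46.7) in dog 1, 17.9 (4.74 to 151) in dog 3 and 9.38 (2.96 to 47.7) in dog 4. In dogs 2 and 5, each with 1 read before treatment, it was 34.6 (5.81 to 1403) and 52.3 (8.94 to 2110). None of the 5 intervals included equality, and that of dog 1 came nearest to it. The fitted log2 fold change was 3.98 (SE 0.49). The mean of the log2 ratios of single dogs was 3.06 ± 0.98 (SD, n = 5) with a prior count of 2, 3.73 with a prior count of 0.5 and 1.79 with a prior count of 10.

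GPX3 (ENSCAFG00000031922) was low and even before treatment and differed widely between dogs afterwards. Its Pre-ACTH levels were 1.37, 2.32, 1.85, 1.25 and 2.68 CPM in dogs 1 to 5, from 14 to 40 reads. Its Post-ACTH levels were 2.07, 52.5, 13.3, 75.7 and 55.6. Dogs 2, 4 and 5 were thus far above their earlier levels, dog 3 was intermediate, and dog 1 remained within the Pre-ACTH range. The coefficient of variation between dogs was 0.322 in Pre-ACTH and 0.777 in Post-ACTH.

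The mean of GPX3 was 1.89 ± 0.61 in Pre-ACTH and 39.8 ± 30.9 in Post-ACTH (SD, n = 5 dogs), and the fitted log2 fold change was 3.99 (SE 0.60). In dog 4, reads went from 14 to 1052, a fold of 60.4 (counting interval 35.8 to 110.9). The folds of dogs 2 and 5, 22.6 (15.8 to 33.6) and 20.8 (15.1 to 29.3), had overlapping intervals. Dog 3 had a fold of 7.17 (4.36 to 12.6). In dog 1 reads went from 18 to 25, a fold of 1.52 whose interval, 0.795 to 2.95, included equality. The groups overlapped through the Post-ACTH library of dog 1 alone, and without this dog they were separate. Without dog 1 this held, higher in Post-ACTH, for 1080 of the 13577 tested genes, against 584 with all dogs.

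**Figure D2:**
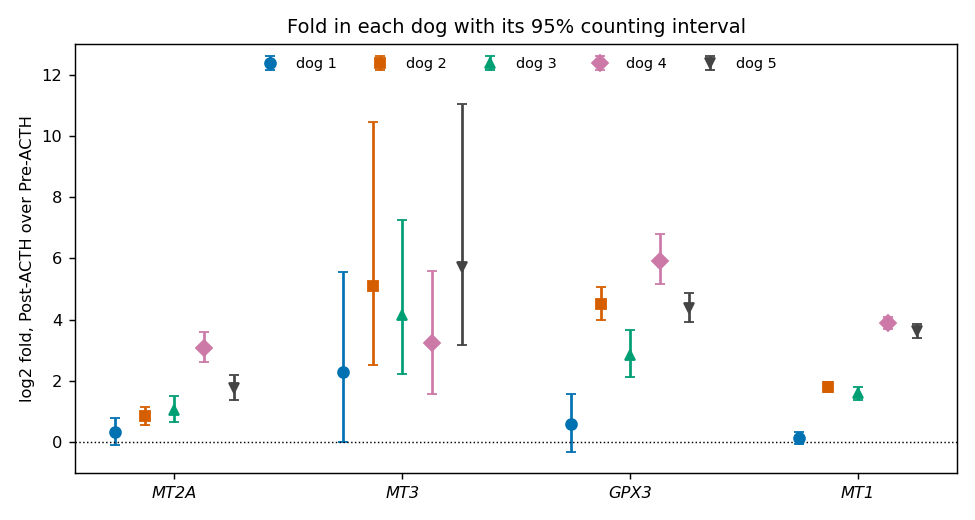
Fold of Post-ACTH over Pre-ACTH on the log2 scale in each dog for MT2A, MT3, GPX3 and MT1, with bars for the exact 95% counting interval and a dotted line at no difference. The intervals of dog 1 reach or nearly reach the line in every gene, and the intervals of MT3, from 1 to 3 reads per library before treatment, overlap for all dogs.

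The differences of the 3 genes were then compared dog by dog, to see whether the animals ranked alike. Dog 1 had the smallest log2 ratio in all 3 genes, at 0.34 for MT2A, 1.56 for MT3 and 0.55 for GPX3 (prior count 2). Beyond dog 1 the order was not shared. From smallest to largest it was dogs 1, 2, 3, 5 and 4 for MT2A, dogs 1, 4, 3, 2 and 5 for MT3, and dogs 1, 3, 5, 2 and 4 for GPX3. Of the 10 pairs of dogs, 5 stood in the same order in all 3 genes, and 4 of these pairs included dog 1. Among the 6 pairs without dog 1, only dogs 3 and 5 were ordered alike. With 5 dogs no correlation was computed.

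MT2A and GPX3 ordered 8 of 10 pairs of dogs alike and shared dog 4 as the largest, at log2 ratios of 3.03 and 5.75. MT3 ordered 6 of 10 pairs like MT2A and 6 of 10 like GPX3, and dog 4 was its second smallest, at 2.66. Counting error limits these orders unequally. The intervals of the folds were apart in 9 of 10 pairs of dogs for GPX3 and in 6 of 10 for MT2A, but in 0 of 10 for MT3, so that no neighbours in the MT3 order were separated at this depth. With a prior count of 10, dogs 2 and 3 changed places in MT3, and the number of pairs in the same order in all 3 genes was 5 under each prior count and scaling tried.

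**Figure D3:**
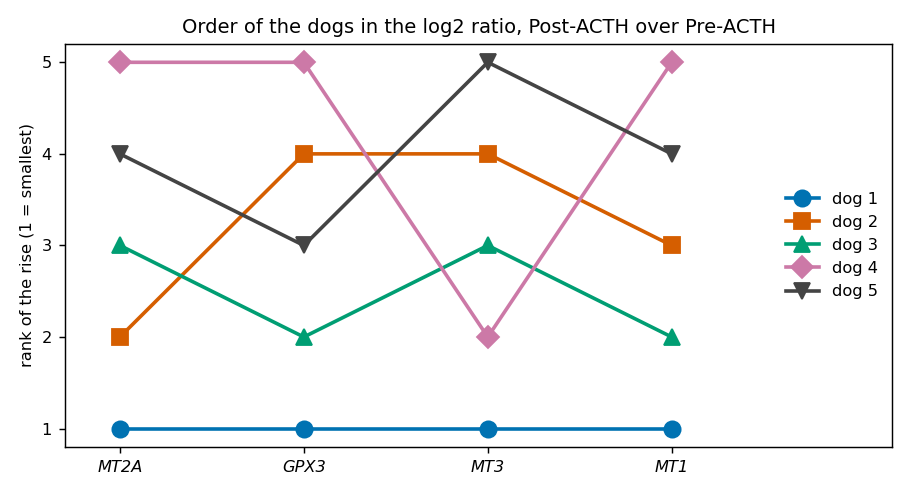
Rank of each of the 5 dogs in the log2 ratio of Post-ACTH over Pre-ACTH (prior count 2; rank 1 is the smallest) for MT2A, GPX3, MT3 and MT1. Dog 1 is at rank 1 in every gene, and dog 4 is at rank 5 in MT2A, GPX3 and MT1 but at rank 2 in MT3.

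The Pre-ACTH level of dog 1 was the third lowest of the dogs for MT2A and MT3 and the second lowest for GPX3. For MT1, in which its log2 ratio was also the smallest (0.14), its Pre-ACTH level was the highest, at 31.1 CPM. Its Post-ACTH level was the lowest for each of these genes. Whether the level before treatment bears on the size of the difference was not tested. In the other genes that passed the test and were higher in Post-ACTH (100 genes), dog 1 had a median log2 ratio of 0.73, against 1.01 to 1.14 in the other dogs. Dog 1 had the smallest ratio in 50 of them. Over all tested genes, the smallest ratio fell to dog 1 in 23.0%. Those 100 genes were called on the same libraries, so this is a description of the dogs. The female dogs lay within the range of the males in the log2 ratio of MT2A, MT3 and GPX3.

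The SD of the log2 ratio between dogs was 1.04 for MT2A and 1.99 for GPX3, whereas its median was 0.31 over all tested genes and 0.32 over the 100 others called higher. For MT3 the SD was 0.98 with a prior count of 2, 1.20 with 0.5 and 0.66 with 10, and the counting intervals of all dogs overlapped.

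MT1 (ENSCAFG00000009113), the other metallothionein with a name in the tables, is a close relative of MT2A that binds the same metals. Its levels in Pre-ACTH were 31.1, 30.0, 23.6, 18.6 and 13.3 CPM in dogs 1 to 5, and in Post-ACTH 34.2, 104.6, 71.4, 275.8 and 165.0. The groups did not overlap, as in 4.30% of all tested genes in this direction. Dog 1 was only a little above its own earlier level, with a fold of 1.10 (counting interval 0.957 to 1.26). In dogs 4 and 5 the fold was 14.8 (12.9 to 17.1) and 12.4 (10.7 to 14.4). The fitted log2 fold change was 2.22 (SE 0.54), and MT1 missed the threshold (adjusted p = 0.0411, edgeR quasi-likelihood test). MT1 also belongs to the study's list of changed genes in these libraries, so its direction is no independent observation.

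MT1 ordered 9 of 10 pairs of dogs like MT2A and 9 of 10 like GPX3, and 7 of 10 like MT3. The number of MT1 reads per MT2A read was between 2.76 and 5.47 in the Pre-ACTH libraries. In Post-ACTH it was 4.48, 5.49 and 5.05 in dogs 1, 2 and 3, and 9.54 and 9.96 in dogs 4 and 5. In dogs 4 and 5, MT1 thus stood higher relative to MT2A than in any Pre-ACTH library. MT3 made up 0.184% to 1.20% of the reads of the 3 metallothioneins before treatment, and 0.820% to 4.35% after it. Metallothionein transcripts are short and alike, and the handling of reads that match several genes is not stated in the sources used here, so the division of reads among MT1, MT2A and MT3 is uncertain.

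Genes of metal and thiol chemistry around these 3 were followed through 9 lists with 153 entries. Names were available only for genes in the study's list of changed genes, which covered 13 of the entries, and 10 of these were not among the 3 genes. No gene of zinc and copper handling, of the NRF2 response or of the other selenoproteins had a name, and they were not analysed here. As the study's own calls on these libraries decided which genes had names, the directions below are no independent evidence. Of the 10, 2 passed FDR under 0.01 and were higher (against 0.751% of all tested genes), and 0 passed and were lower (against 1.22%). Their median log2 fold change was 1.28, against -0.00 over all tested genes. In the same edgeR test 8 were higher at FDR under 0.05 (against 4.84% of all tested genes) and 2 were lower (against 6.28%). The counts were the same at an unadjusted p under 0.05, which 13.9% of all tested genes passed as higher and 15.1% as lower. DESeq2 called 8 higher and 2 lower at FDR under 0.01, against 3.68% and 5.02% of all tested genes.

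The 2 that passed FDR under 0.01 were glutathione S-transferases of the mu class, enzymes that join glutathione to reactive compounds. GSTM3 rose from 124.6 ± 24.2 to 478.4 ± 212.5 CPM (SD, n = 5), a log2 difference of 1.85 (SE 0.23) with an edgeR adjusted p of 0.00522. GSTM4 rose from 450.4 ± 133.4 to 1343 ± 563 CPM, a log2 difference of 1.54 (SE 0.23) with an edgeR adjusted p of 0.00939. In both, the groups did not overlap and all 5 dogs were higher, which held for 4.30% and 13.4% of all tested genes. Both missed the threshold when dog 2, 3, 4 or 5 was left out, with adjusted p-values from 0.0142 to 0.0214 for GSTM3 and from 0.0197 to 0.0450 for GSTM4 (edgeR, same test). Over all 13 alternatives the adjusted p ran from 4.87e-17 to 0.0214 for GSTM3 and from 2.41e-12 to 0.0450 for GSTM4. GSTM3 and GSTM4 are also similar in sequence, so reads could be divided between them.

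The other 8 genes missed FDR under 0.01. FTL and FTH1, the light and heavy chains of the iron store ferritin, had log2 fold changes of 1.65 (SE 0.36) and 0.87 (SE 0.16), and FTL was 2682 CPM in its highest Post-ACTH library against at most 346.3 in Pre-ACTH. CHAC1, an enzyme that breaks down glutathione, had a log2 fold change of 3.11 (SE 0.54). SLC3A2, a chain of the cystine transporter that feeds glutathione synthesis, had 1.00 (SE 0.19). The stress proteins SESN1 and SESN3 went apart, at 1.01 (SE 0.25) and -1.12 (SE 0.19). SOD1, the copper and zinc enzyme that removes superoxide, was at -0.60 (SE 0.13), lower in 5 of 5 dogs. Their adjusted p-values, MT1 included, ran from 0.0126 for SESN3 to 0.0425 for SESN1 (edgeR quasi-likelihood test).

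**Figure D4:**
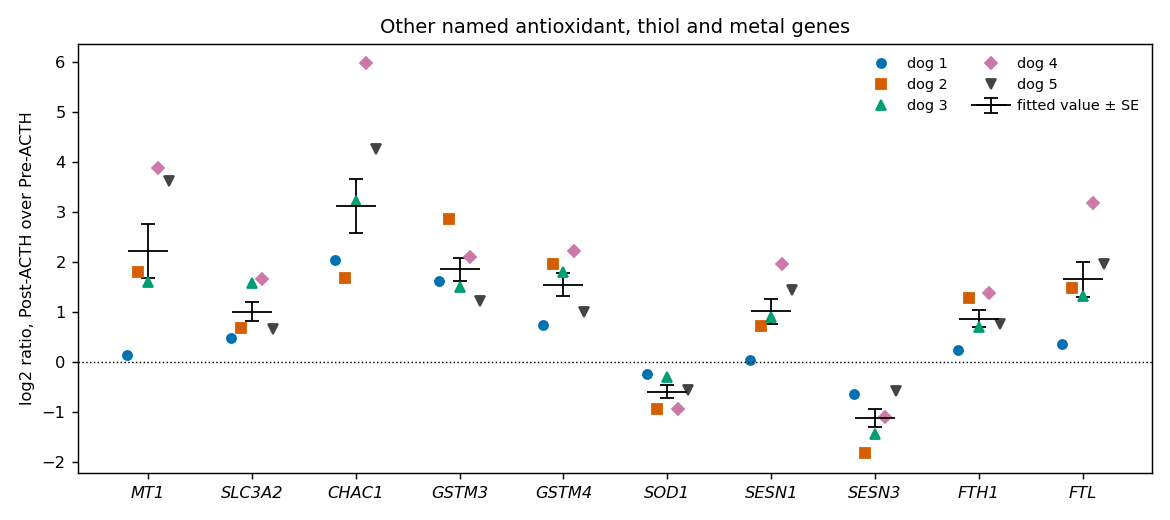
Log2 ratio of Post-ACTH over Pre-ACTH in each dog (coloured symbols, prior count 2) and the fitted log2 fold change with its SE (black) for the 10 other named genes of metal and thiol chemistry. GSTM3 and GSTM4 lie above 0 in every dog, SOD1 and SESN3 below 0 in every dog, and dog 1 is near 0 for MT1 (0.14) and SESN1 (0.03).

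The log2 ratios of the dogs were also compared with those of glucocorticoid targets. Of 17 listed targets, 9 had names, again through the study's own list of changed genes. Among these 9, edgeR called 2 higher and 0 lower at FDR under 0.01, where 0.751% and 1.22% of all tested genes were called. At an unadjusted p under 0.05 it called 8 higher and 1 lower, where 13.9% and 15.1% of all tested genes were called. FKBP5, a chaperone partner of the glucocorticoid receptor, rose by 2.21 on the log2 scale (SE 0.29) with an edgeR adjusted p of 0.00633, and its log2 ratios were 1.45, 2.13, 3.68, 1.96 and 2.00 in dogs 1 to 5. GLUL, which makes glutamine, rose by 1.26 (SE 0.19) with an edgeR adjusted p of 0.00953, and its log2 ratio was 0.57 in dog 1 and 1.13 to 2.00 in the other dogs. FKBP5 missed the threshold without dog 2, 4 or 5 and GLUL without dog 2, 3, 4 or 5, with edgeR adjusted p-values of at most 0.0323 and 0.0454. Dog 1 had the smallest ratio in both genes, as in MT2A, MT3 and GPX3. The largest belonged to dog 3 in both, whereas it belonged to dog 4 in MT2A and GPX3 and to dog 5 in MT3. Dog 4 had the second smallest ratio in FKBP5 and GLUL, as it had in MT3. Whether these targets and the 3 genes differ in this was not tested.

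The genes whose log2 ratios in the 5 dogs lay nearest to those of each of the 3, by the root mean square (RMS) difference, were sought among the named genes. For MT2A the nearest of all tested genes was FTL, at an RMS difference of 0.33, with ratios of 0.35, 1.48, 1.32, 3.17 and 1.95 in dogs 1 to 5. SH3PXD2B, a scaffold of podosomes, and IRX3, a homeobox factor, followed at 0.37 and 0.41. For GPX3 the nearest of all tested genes was IL1RL1, the receptor of interleukin-33, at 0.52, with ratios of 0.50, 3.37, 3.09, 5.70 and 3.92. SFRP5, a secreted inhibitor of Wnt signaling, and GRTP1 were farther away, at 1.21 and 1.34. For MT3 the nearest named genes were ABCC8, a subunit of potassium channels that sense ATP, BAMBI, a decoy receptor of TGF-beta signaling, and ANGPT4, an angiopoietin. Their RMS differences from MT3 were 0.80, 0.83 and 0.83, against Pre-ACTH counts of 1 to 3 reads for MT3.

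By the likeness of the levels over the 10 libraries, the nearest named genes were EPS15L1, GCAT and MT1 for MT2A, SMARCD2, RHBDD2 and FTL for GPX3, and the ribosomal protein genes RPL18, RPS14 and RPSA for MT3. The 2 groups of libraries differ in level in these genes, so no pooled correlation is given. The log2 ratios of the 3 ribosomal genes were between 0.28 and 0.96 in single dogs, below those of MT3 in every dog. Names were available for 1079 genes, all from the study's list of changed genes. FTL appeared under both measures, next to MT2A by the first and next to GPX3 by the second.

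Marker levels of other cells were also followed. Markers too had names only through the study's list of changed genes, so a difference was fixed in advance and is no independent evidence. No endothelial, mesothelial, lymphocyte, brown adipocyte or erythroid marker had a name, and these cells were not followed. The 6 named of 8 fibroblast and progenitor markers summed to 1186 to 2502 CPM before treatment and to 374.7 to 665.8 after it. Of these, 3 (LUM, COL3A1 and PI16) fell at FDR under 0.01, but 0 did without dog 2 or without dog 3. Over all tested genes, 1.22% passed as lower and 0.751% as higher. The 3 named of 10 macrophage markers summed to 78.3 to 169.7 CPM before and 46.3 to 112.4 after treatment, and none of these passed. CSF1R and ITGAM had log2 fold changes of -0.75 (SE 0.21) and -0.88 (SE 0.17), whereas that of C1QB was 1.00 (SE 0.23), higher in 5 of 5 dogs. The mast cell markers CPA3 and MS4A2, 2 of 7 listed, summed to 1.27 to 3.26 CPM before treatment and at most 0.249 after it. After treatment CPA3 had no read in 3 libraries and MS4A2 none in 2. CPA3 passed as lower (edgeR adjusted p of 0.00798), a call lost without dog 2, and MS4A2 did not pass. CKM, the single named gene of 9 skeletal muscle markers, rose from 2.77 to 16.4 CPM across the Pre-ACTH libraries to 43.3 to 142.4 in Post-ACTH, but missed the threshold without dog 3 (edgeR adjusted p of 0.0112). The 3 named of 7 mural and smooth muscle markers summed to 195.1 to 242.8 CPM before and 155.1 to 186.0 after treatment, but they did not go one way. PDGFRB fell by 0.74 on the log2 scale (SE 0.07) with an edgeR adjusted p of 0.00241, a call lost without dog 2, 3 or 5, whereas DES and MYH11 had log2 fold changes of 1.40 (SE 0.28) and 0.89 (SE 0.29) and did not pass. The part of these shifts in the levels of MT2A, MT3 and GPX3 was not tested.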

How the data were processed

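Per the labels and the study's methods, trimmed reads were mapped to CanFam3.1 (STAR) and assigned to Ensembl genes (featureCounts) by the authors. The deposited values are raw counts, in 1 table per library, without normalization. Tool versions, annotation release, strand setting and handling of reads matching several genes are not given in the sources used here. The labels name a stranded mRNA kit, whereas the methods describe ribosomal RNA depletion.

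From the counts, edgeR 4.0.16 in R 4.3.3 (TMM factors, glmQLFit, glmQLFTest) compared Post-ACTH with Pre-ACTH in a paired model with a term for each dog. Tested were the 13577 genes that reached 10 reads in 1 library or more. P-values were adjusted by Benjamini-Hochberg over all tested genes, and FDR under 0.01 was the threshold. Each SE is the absolute log2 fold change divided by the square root of F. For single dogs, log2 ratios were taken between log2 CPM values computed with prior count 2, where CPM is counts scaled to 1000000 reads. Counting intervals are exact (95%) and cover counting error only. Pairing follows the animal IDs in the labels. Deviations from the group means correlated, across genes, at 0.0772 in dog 4 to 0.412 in dog 2 between samples of the same dog. Between samples of different dogs the mean was -0.068 and the highest value 0.206. As the latter lies above the value of dog 4, the pairing of dog 4 rests on the labels.

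Symbols were matched by Ensembl identifier to the study's own list of changed genes, in which 1079 of 1190 entries carry a symbol. Its fold changes and p-values were not used. The genes, lists and tests were chosen with earlier results of these data known. Named were the 3 genes, all named metallothioneins and glutathione peroxidases, the called or lowest-p genes of the other lists, and the 3 genes most like each member by 2 measures. FKBP5 and GLUL were the called glucocorticoid targets. SESN1 and the marker genes were named after their values were seen. The fit was tested on simulated data. Alternatives were limma-voom (limma 3.58.1), DESeq2 1.42.0, an unpaired fit, scaling by RLE, by total counts or by upper quartiles, other filters and prior counts, FDR under 0.05 and leaving out each dog. The overlap of groups and the number of the 3 genes called were recomputed after seeing the data. Promoters and protein sequences were not analysed here.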

Additional observations from a re-analysis of the deposited data

Results flagged for a closer look

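The Pre-ACTH level, the Post-ACTH level and the log2 ratio of each of the 13 named genes gave 39 sets of 5 values. Of these sets, 2 held a dog far from the others of its group by Dixon's criterion. Chance gives this in about 1 of 20 sets of normally distributed values. The number found is near that rate, and levels were CPM without logs, so nothing is read from this number. Both belong to CHAC1, the glutathione-degrading enzyme, in dog 2, at 17.5 CPM in Pre-ACTH and 56.2 in Post-ACTH, the highest of each group. The log2 ratio of this dog was 1.67, the lowest of the 5.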

How the results depend on the processing

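The 13 alternative fits gave 38 fitted log2 fold changes for MT2A, MT3 and GPX3 together. All 38 values kept their direction and moved by less than the SD between dogs. Each gene was higher in all 5 dogs and its SD was large. Refits that left out 1 dog or changed the scaling could thus hardly come out otherwise, and nothing is read from this count. Leaving out each dog gave 1.02 to 1.65 for MT2A, 3.62 to 4.31 for MT3 and 3.52 to 4.48 for GPX3. With a filter of 10 reads in 5 libraries MT3 was not tested, and 0 of the 3 genes passed, against 2 in the main test and 3, MT2A included, with DESeq2. Leaving out each dog, between 0 and 2 of the 3 genes passed, and between 1 and 3 had groups that did not overlap. Over all tested genes, 584 had separate groups, higher in Post-ACTH, with all dogs, 1080 without dog 1 and 787 without dog 2. Without dog 3, 4 or 5 there were between 864 and 905, so separation was more frequent in general when a dog was left out. Over all genes 268 passed, 1180 with DESeq2, 438 with no filter beyond 1 read, 1509 at FDR under 0.05 and between 1 and 318 with each dog left out, 1 of them without dog 2, 12 without dog 3, 117 without dog 4 and 23 without dog 5. With no replicate block, the fit without the pairing by dog, 262 passed. Of the 10 other named pathway genes, 2 passed and were higher, 8 with DESeq2, 8 at FDR under 0.05, 1 with no replicate block, 1 with the stricter filter and between 0 and 3 with each dog left out. None passed and was lower in the main test, 2 with DESeq2, 2 at FDR under 0.05, 1 with no filter beyond 1 read and 0 with each dog left out. Without the block GSTM4 missed the threshold (adjusted p = 0.0115, edgeR quasi-likelihood test), and no other call among the 3 genes and these 10 changed. The cause of these shifts was not tested. Depth limits MT3 most, with 1 to 3 reads per Pre-ACTH library.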
